A study of Mus musculus with 14 samples.

Results

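The transcription factors examined here were the Brn3 factors Pou4f1 (Brn3a), Pou4f2 (Brn3b) and Pou4f3 (Brn3c), the Islet factors Isl1 and Isl2, and the Ebf factors Ebf1, Ebf2 and Ebf3, taken from a list of 8 genes used to identify retinal ganglion cells (RGCs). Every probe set that the array's annotation gave to 1 of these genes alone was used, which was 17 probe sets of 7 genes among 18193 genes measured in all. Pou4f2 had no such probe set in the annotation and was not analysed here. The study that reported these cells lists Brn3b among the genes it found present in them. The cells were 14 single adult mouse RGCs, 1 per Affymetrix whole-genome mouse array, named cell 1 to cell 14. They came from mice heterozygous for both PV-Cre, in which Cre recombinase is made from the parvalbumin gene Pvalb, and the Ai9 tdTomato reporter, on a mixed background drawn from C57BL/6 and 129P2/OlaHsd. Cells were picked by pipette for red fluorescence after papain dissociation, and their libraries were screened by PCR for the presence of the RGC gene Sncg and the absence of rod (rhodopsin) and Müller glia (glutamine synthetase) transcripts before hybridization. All 14 formed 1 group with no other condition, so no test between groups was made. No source used here named an animal for any cell, and every SD is the spread between cells.

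Brn3 proteins are POU homeodomain factors, which bind DNA through a POU-specific domain joined to a homeodomain. Islet proteins are LIM homeodomain factors, whose LIM domains recruit cofactors such as Ldb proteins. In the mouse retina, Pou4f2 and Isl1 act together after the proneural factor Atoh7 to drive the differentiation of RGCs, and Pou4f1 and Pou4f2 remain in large sets of mature RGCs. Isl2 is known in mice from RGCs whose axons cross the midline. Ebf proteins form their own family of helix-loop-helix factors, first described in B lymphocytes and olfactory neurons, and several of them appear in newborn RGCs. Isl1 is also known from bipolar cells, horizontal cells and cholinergic amacrine cells of the retina.

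The DNA next to the outer end of Pou4f1, Isl1 and Ebf1 is shown because these were the 3 most widely detected factors. The sequences are from RefSeq on build GRCm38.p6, on the strand of the gene, 5′ to 3′, and lie outside the span that RefSeq gives each gene. They are 250 bases long for Isl1 and Ebf1 and 131 for Pou4f1, whose start site in the promoter table lies 119 bases within the gene's span. The windows of Ebf3 and Isl2 lay wholly inside those genes, at internal start sites, and are not shown. Capitals mark matches on either strand to the E-box CANNTG, the binding motif of proneural factors such as Atoh7.
Pou4f1 (chr14:104468119-104468249, minus strand): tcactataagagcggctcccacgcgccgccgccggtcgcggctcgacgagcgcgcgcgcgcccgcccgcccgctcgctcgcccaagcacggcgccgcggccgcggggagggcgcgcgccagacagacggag
Isl1 (chr13:116309689-116309938, minus strand): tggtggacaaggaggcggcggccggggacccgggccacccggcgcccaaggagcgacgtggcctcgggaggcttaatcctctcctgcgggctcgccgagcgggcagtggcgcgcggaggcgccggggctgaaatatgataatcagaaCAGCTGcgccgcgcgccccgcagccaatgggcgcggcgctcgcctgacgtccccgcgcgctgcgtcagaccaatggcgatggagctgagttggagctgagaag
Ebf1 (chr11:44617850-44618099, plus strand): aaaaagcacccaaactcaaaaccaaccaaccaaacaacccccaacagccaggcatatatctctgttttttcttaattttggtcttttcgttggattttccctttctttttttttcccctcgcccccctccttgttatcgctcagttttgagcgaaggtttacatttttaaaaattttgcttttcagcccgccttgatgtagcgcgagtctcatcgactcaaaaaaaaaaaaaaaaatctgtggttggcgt
An E-box was found in the Isl1 stretch, as in 66.2% of 32851 windows of 250 bases before RefSeq start sites. The Pou4f1 stretch is shorter than those windows. The rest of its 250-base window, inside the gene's span and not shown, held the E-boxes CAGCTG and CAGGTG. They lay 118 to 113 and 41 to 36 bases before the start site. A further Ebf1 window, at an internal start site and also not shown, held the E-box CAAGTG. The homeodomain core TAATTA, held by 4.84% of those windows, was not matched in the 3 stretches. G and C made up 80.9% of the Pou4f1 stretch, 71.2% of that of Isl1 and 40% of that of Ebf1, against a median of 52.4% over the windows. The matches are a description of letters only.

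A probe set was called detected in a cell when its MAS5 signal reached 8 times the median signal of that array, and a gene was called detected when any of its probe sets was. By this rule 4191 to 11910 probe sets were detected per cell, and thresholds lay between signals of 64.2 and 439.7. Signals have no common scale between probe sets, so they are compared here between cells only. All 7 RGC markers examined besides these factors (Sncg, Nefl, Nefm, Thy1, Rbpms, Slc17a6 and Stmn2) were detected in 11 cells, and 6 of 7 in cells 11, 13 and 14, where Rbpms was not detected. None of 4 cholinergic amacrine markers (Chat, Slc18a3, Slc5a7 and Megf10) was detected in any cell. At most 2 of 7 markers of other amacrine cells, 2 of 6 bipolar and 2 of 6 horizontal markers were found in a cell. Rod markers were found in all cells, with 8 of 10 in each of cells 3 and 6 against 1 to 3 in the other 12, and 0 to 6 of 9 Müller glia markers were found per cell, the most in cell 6. Glul, the gene of the glutamine synthetase that the PCR screen looked for, was detected in 8 cells, at signals of 416.7 to 15865. The part of any of these in the results below was not tested.

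The factors divided into 3 that were found in most cells, 1 found in a subset, 1 found in very few cells, and 2 that reached the threshold in none. Pou4f1 was detected in 13 cells, Isl1 in 12, Ebf1 in 11, Ebf3 in 7 and Isl2 in 2, while Pou4f3 and Ebf2 were not detected. Thus 4 of the 7 (57.1%) were found in at least 7 cells, compared with 26.8% of all genes. Genes with more probe sets have more chances of detection, and among genes with as many probe sets as each factor, 15.5% of those with 1, 30.7% of those with 2, 41.3% of those with 3 and 55.9% of those with 5 reached 7 cells. Detection in at least 13 cells, as for Pou4f1, was seen in 6.90% of genes with 2 probe sets, and detection in at least 12 cells, as for Isl1, in 10.6%. For Ebf1, found in 11 cells with its 5 probe sets, 37.4% of genes of that kind reached 10 cells and 22.5% reached 12.

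**Figure D1:**
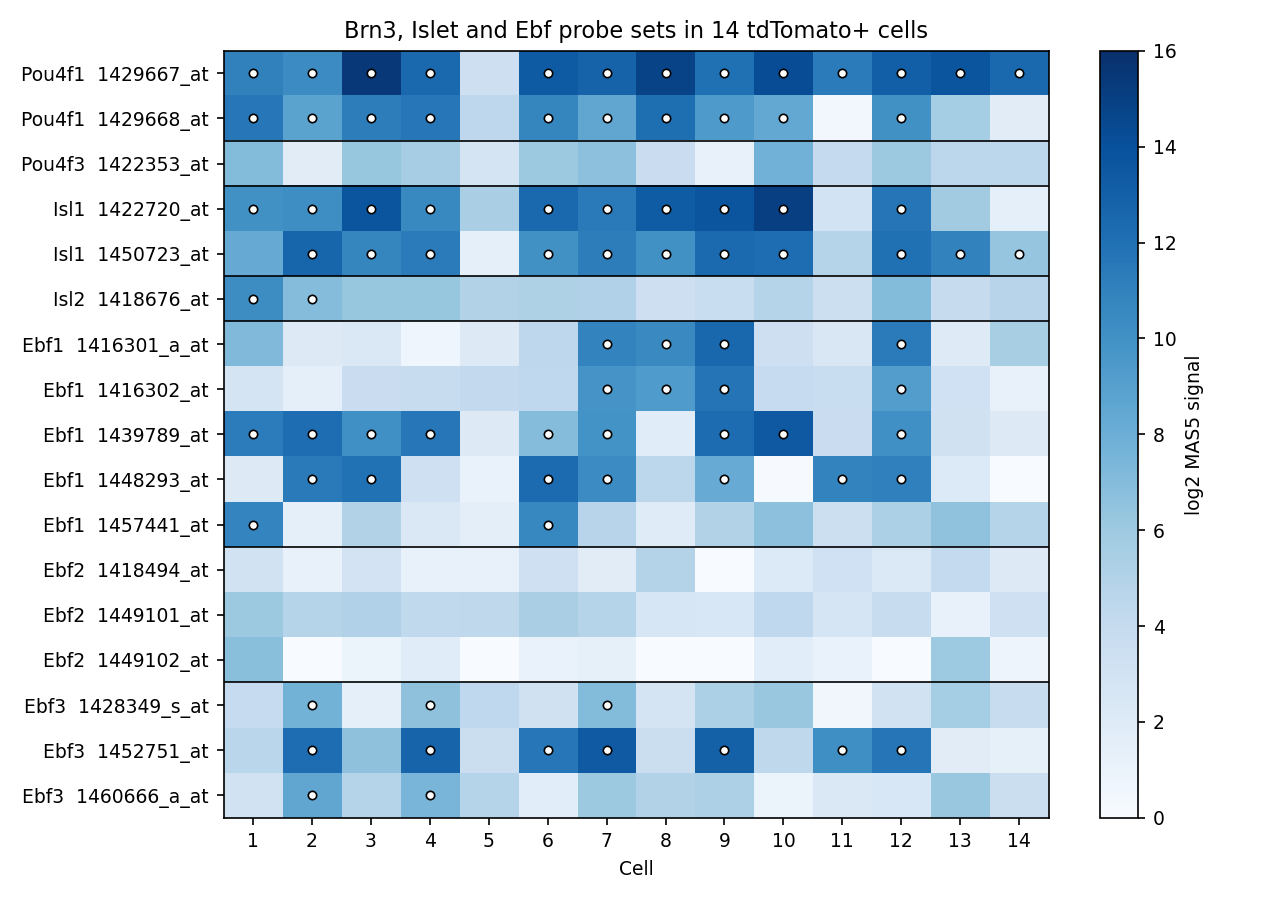
MAS5 signal (log2, colour scale) of the 17 probe sets (rows, grouped by gene) in each of the 14 cells (columns), with a white dot where the probe set was detected. Pou4f1 was detected in all cells but cell 5, the 5 Ebf1 probe sets were not all detected in the same cells, and no dot falls on Pou4f3 or Ebf2.

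Pou4f1 was detected in more cells than any other of these factors. The study reported it, together with Rbpms, as marking its largest cluster of these cells, a grouping that was not compared here. Its signals by probe set 1429667_at were 10.5 at the lowest, 6666 at the median and 44599 at the highest. The lowest value was that of cell 5, where the threshold was 65.3, and the next lowest, 1318 in cell 2, lay against a threshold of 119.2. The 13 cells with detection thus stood clear of the 1 without. The highest signals were 44599 in cell 3, 28364 in cell 8 and 19073 in cell 10. Between the lowest and the highest of the 13 cells lay a factor of 33.8, and their SD on the log2 scale was 1.48. That spread was usual for this array: among 3223 probe sets detected in 10 to 13 cells, the median SD over the detected cells was 1.56, with quartiles of 1.24 and 1.87.

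The other Pou4f1 probe set, 1429668_at, was detected in 10 cells at signals of 341.2 to 4616 and was at most 50.6 elsewhere. Cells 11, 13 and 14 had Pou4f1 by the first probe set, at 2594, 13642 and 5894, but not by the other, at 1.38, 50.6 and 3.50. The probe sets gave the same call in 11 of 14 cells, which was also the median for 5310 pairs of probe sets of 1 gene that were each detected in at least 4 cells. Their Pearson r across the 14 cells on log2(signal + 32) was 0.45, where those pairs had a median of 0.62.

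Isl1 was found in 12 of the 13 cells that had Pou4f1. Probe set 1422720_at had signals of 2.64 at the lowest, 2083 at the median and 33760 at the highest, and was detected in 10 cells at 1066 or above. In cells 5, 11, 13 and 14 it was at most 56.2, so that detected and undetected cells were well apart. Cell 10 had the highest signal and cells 3, 9 and 8 followed at 13735, 13512 and 10104. The log2 SD over the 10 cells was 1.71.

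Probe set 1450723_at of Isl1 added cells 13 and 14. Its signal was 1907 in cell 13 and 82.5 in cell 14, where the threshold was 64.2, so the call in cell 14 was a weak one. In cell 1 it read 301.4, under the high threshold of 439.7 on that array, while the first probe set read 1066 there. Both probe sets were detected in 9 cells, and both were undetected in cells 5 and 11. Their calls matched in 11 cells, with r = 0.74. Among the 14 cells, cell 11 was the one that had Pou4f1 without Isl1.

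The cells in which 1 of these probe sets was not detected were not spread evenly. Cells 11, 13 and 14 were those in which Pou4f1 was carried by a single probe set, and all 3 were also without 1422720_at of Isl1. The RGC marker Rbpms was undetected in the same 3 cells. Over all genes with several probe sets, the share of those detected by their brightest probe set that were also detected by another was 32.3% in cell 5, 36.1% in cell 13, 38.7% in cell 14, 40.2% in cell 1 and 43.9% in cell 11, against 47.1% to 59.7% in the other 9. The ratio of 3′ to 5′ Gapdh signal was 1.95 in cell 13 and 2.61 in cell 14, with 1.09 to 1.55 in the other 12. The same ratio for Actb put other cells first, with 106.5 in cell 11, 23.8 in cell 5, 20.9 in cell 1, 15.9 in cell 14 and 5.59 in cell 13. RNA was copied from an oligo-dT primer, which favours 3′ ends. The part of this, or of differences between kinds of RGC, in the undetected probe sets was not tested.

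Isl2 was seen clearly in 1 cell. Its single probe set, 1418676_at, had signals of 10.4 at the lowest, 32.9 at the median and 1227 at the highest. The highest was in cell 1, at 2.79 times the threshold there. The call in cell 2 rested on a signal of 124.5 against a threshold of 119.2, and cell 12 missed its threshold of 130.0 with a higher signal, 129.7. Cell 4 read 76.9 against a threshold of 83.2. Detections of Isl2 thus overlapped in signal with non-detections, apart from cell 1. For comparison, 44.3% of genes with 1 probe set were detected in at least 1 cell.

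Pou4f3, the third Brn3 factor, best known for its role in the hair cells of the inner ear, did not reach the threshold in any cell. Signals of 1422353_at were 2.24 at the lowest, 35.5 at the median and 210.4 at the highest. The nearest approach was in cell 7, at 98.8 or 0.792 of its threshold. Ebf2 was not detected either, with maxima of 29.9, 65.7 and 110.3 for its 3 probe sets, none above 0.574 of the threshold of its array. Not being detected on these arrays does not show that either gene was silent, and each library had been amplified from 1 cell through 35 cycles of PCR. Of all genes with 3 probe sets, 80.9% were detected in at least 1 cell.

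**Figure D2:**
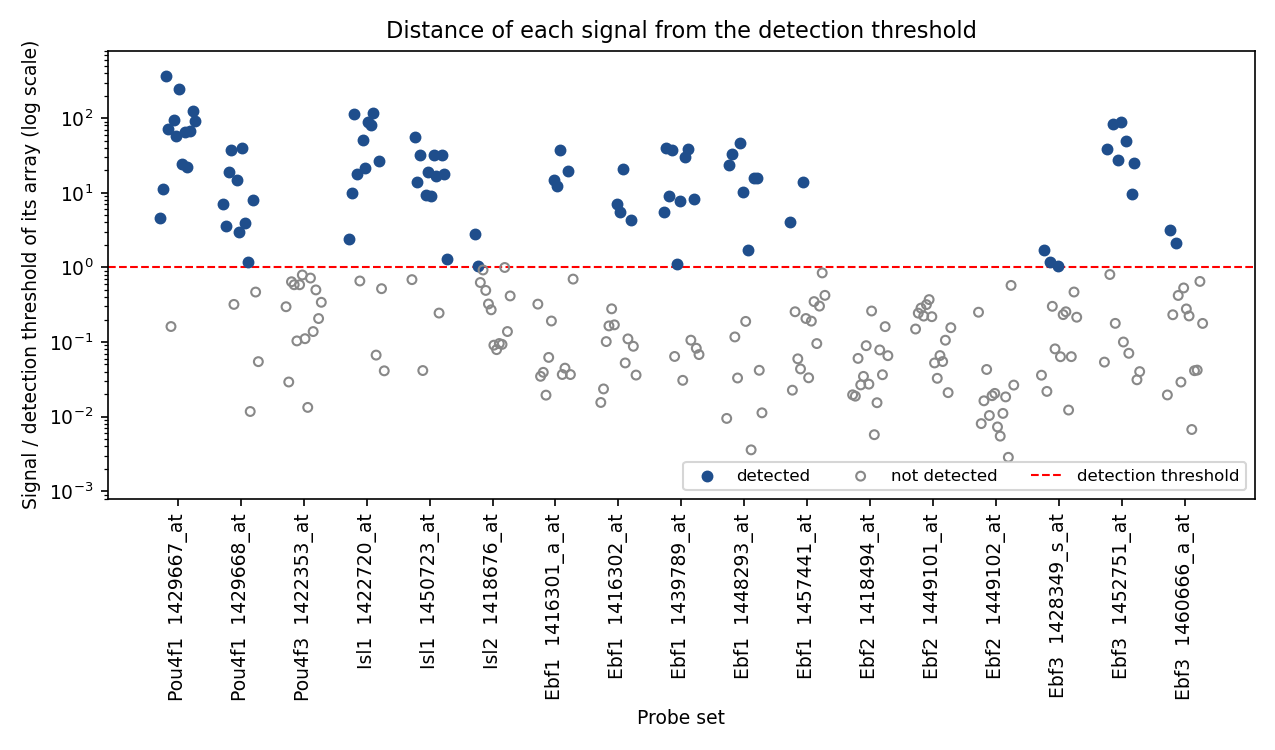
Signal of each probe set divided by the detection threshold of its array (vertical, log scale) for the 17 probe sets (horizontal), 1 point per cell, filled where detected and open where not, with the threshold as a dashed red line. Pou4f1 and Isl1 lie above the line in most cells, Isl2 lies beside it in cells 2 and 12 and Pou4f3 reaches at most 0.792 of it.

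Ebf1 was detected in 11 cells, in all but cells 5, 13 and 14, but no single probe set showed it in more than 9. Probe set 1439789_at had signals of 3.53 at the lowest, 1020 at the median and 11143 at the highest, and was detected in cells 1, 2, 3, 4, 6, 7, 9, 10 and 12. In the other 5 cells it was at most 12.5. The highest signals were in cells 10, 9 and 2, at 11143, 4993 and 4761, and the lowest detection was 123.5 in cell 6, where the threshold was 112.5.

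Cells 8 and 11, by contrast, were added to the count of Ebf1 by other probe sets. In cell 8, 1416301_a_at and 1416302_at read 1438 and 643.6, while 1439789_at read 3.53. In cell 11, 1448293_at alone was detected, at 1846. Probe sets 1416301_a_at and 1416302_at were detected in the same 4 cells, 7, 8, 9 and 12, and followed each other closely (r = 0.96, rho = 0.55, over 14 cells). Against 1439789_at they gave the same call in only 7 of 14 cells, with r of 0.17 for each. The remaining probe sets also stood apart: 1448293_at was detected in 7 cells at 286.2 to 5234, and 1457441_at in cells 1 and 6 alone, at 1758 and 1582.

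The annotation gives 1416301_a_at, 1416302_at and 1448293_at the same source sequence record, and 1448293_at gave the same calls as the other two in 9 cells each, with r of 0.12 and 0.16. Cells 7, 9 and 12 were the 3 in which 4 of the 5 Ebf1 probe sets were detected. Detection rested on 1 probe set in cells 4, 10 and 11, on 2 in cells 1, 2, 3 and 8, and on 3 in cell 6. Where the probe sets lie within Ebf1 transcripts was not stated in any source used.

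Ebf3 was detected in 7 of the 14 cells. By probe set 1452751_at its signals were 2.57 at the lowest, 611.1 at the median and 11037 at the highest. Detection was in cells 2, 4, 6, 7, 9, 11 and 12, at 1124 or above, and in the other 7 cells the signal was at most 97.8, so the sets did not overlap. Cell 7 had the highest value, followed by cells 9 and 4 at 8177 and 6900. The SD over the 7 cells with detection was 1.10 on the log2 scale, compared with a median of 1.60 (quartiles 1.30 and 1.93) over 3171 probe sets detected in 7 to 9 cells.

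The further Ebf3 probe sets were detected in fewer cells and added none. Probe set 1460666_a_at was detected in cells 2 and 4, at 373.2 and 178.2, and 1428349_s_at in cells 2, 4 and 7, at 202.9, 97.4 and 129.8. The suffix of 1428349_s_at marks a probe set that may bind transcripts of more than 1 gene. These cells lay among those with Ebf3 by the main probe set.

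The cells with Ebf3 were also the cells in which most transcripts were detected. Cells 12, 4, 7, 6, 9 and 2 had the highest numbers of detected probe sets, from 9162 to 11910, and all 6 had Ebf3. The only other was cell 11, with 7112, while cells 1 and 8 had 7710 and 7200 without Ebf3. Across the 14 cells, r between the Ebf3 signal and the number of detected probe sets was 0.86 (rho = 0.82), and 0.86 with the 2 cells of most extreme Ebf3 signal removed. Of 696 genes detected in 7 cells, Ebf3 among them, 99.9% had a lower r with this number, and their median was 0.34. For Pou4f1, Isl1 and Ebf1 it was 0.19, 0.42 and 0.52, with medians of 0.18, 0.35 and 0.37 for genes detected in as many cells. Whether the richness of a library had a part in the pattern of Ebf3 was not tested.

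**Figure D3:**
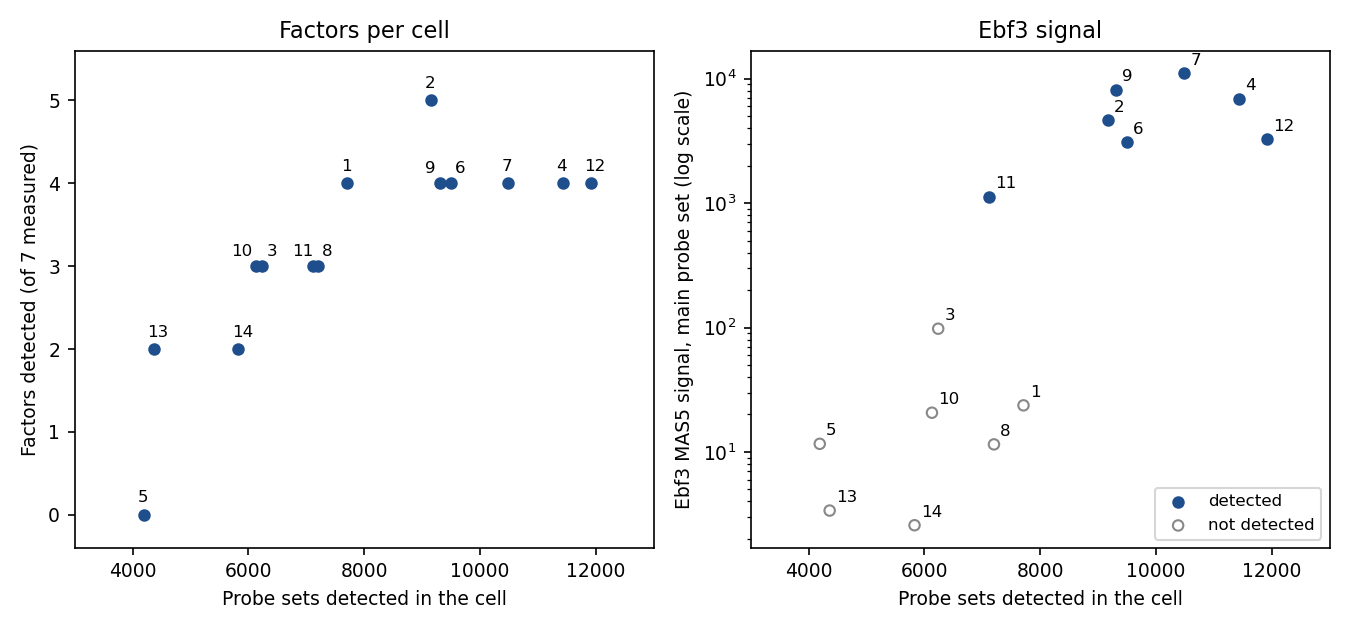
Number of the 7 measured factors detected (left) and MAS5 signal of the main Ebf3 probe set on a log scale (right) against the number of probe sets detected in each cell, with points numbered by cell and open points where Ebf3 was not detected. Cell 5 has 0 factors and cell 2 has 5, and the 6 cells with 9162 or more detected probe sets all have Ebf3.

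Combinations of the factors varied from cell to cell. The mean was 3.21 ± 1.25 factors per cell (SD, n = 14), of the 7 measured. Cell 2 had the most, with Pou4f1, Isl1, Isl2, Ebf1 and Ebf3. Pou4f1, Isl1, Ebf1 and Ebf3 stood together in cells 4, 6, 7, 9 and 12. The trio of Pou4f1, Isl1 and Ebf1 without Ebf3 was found in cells 3, 8 and 10, and in cell 1 with Isl2. Cell 11 had Pou4f1, Ebf1 and Ebf3 without Isl1, and cells 13 and 14 had Pou4f1 and Isl1 alone. No cell had an Ebf factor without Pou4f1, but only cell 5 lacked Pou4f1, and it had none of the factors. All 7 cells with Ebf3 also had Ebf1 by any of its probe sets, as did 11 of all 14 cells. By the main probe sets 6 of them had both, and cell 11 did not.

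Cell 5 had none of the 7 factors. Its Pou4f1 signals were 10.5 and 20.9, its Isl1 signals 43.0 and 2.71, and its highest Ebf1 signal was 18.2, against a threshold of 65.3. All 7 RGC markers were nevertheless detected there. Cell 5 had the fewest detected probe sets of any cell, 4191, followed by cell 13 with 4362, in which Pou4f1 and Isl1 were found. Pvalb, from which Cre is made in these mice, was likewise undetected in cell 5, at a signal of 7.27, against 1146 to 65384 in the other 13 cells. Of the 7 amacrine markers, Slc6a9 and Slc32a1 were detected in cell 5, and Gad1, Gad2, Tfap2a, Tfap2b and Tfap2c were not. Slc6a9 was also detected in cells 2, 4, 6, 11 and 14, and Slc32a1 in cells 3 and 8, all of which had Pou4f1. By its main probe set, Slc32a1 was at most 138.7 in the cells with detection and up to 145.1 in cells without. No other cell but cell 11 had as many. The part of library quality or of cell type in the absence of the factors was not tested. Cells 3 and 6, with the most rod markers, had 3 and 4 of the factors. Without these 2 cells Pou4f1 was detected in 91.7% of cells, Isl1 in 83.3%, Ebf1 in 75% and Ebf3 in 50%, compared with 92.9%, 85.7%, 78.6% and 50% over all cells. Without cells 5 and 13 the shares were 100%, 91.7%, 91.7% and 58.3%.

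Signals of the factors followed each other only in part. The 6 pairs among Pou4f1, Isl1, Ebf1 and Ebf3 had r from 0.01 to 0.66 across the 14 cells, by the probe set of each gene with the highest mean. Isl1 and Ebf1 had the highest (r = 0.66, rho = 0.50), followed by Pou4f1 and Isl1 (r = 0.53, rho = 0.65) and by Ebf1 and Ebf3 (r = 0.45, rho = 0.58). Cells in which neither gene of a pair was detected by these probe sets were then left out. Over the 10 cells kept for each pair, r was -0.065 for Isl1 and Ebf1 and -0.16 for Ebf1 and Ebf3. For Pou4f1 and Isl1 only cell 5 was left out, and r was 0.45 over 13 cells. Removing cells low for both genes tends to lower r by itself, so these values do not show whether the factors vary together. Pou4f1 and Ebf3 had r = 0.01 over all cells and -0.37 once the 2 cells whose Pou4f1 lay farthest from its median were removed. All values are a description of 14 cells whose arrays differ in the number of detected transcripts.

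The study sought genes that follow Pvalb, so the factors were set against it as well. Pou4f1 had r = 0.57 with Pvalb, but rho was -0.09, and with the same 2 cells removed r was -0.13. Cell 5, in which both were undetected, was 1 of those 2 cells. For Isl1, Ebf1 and Ebf3, r was 0.06, 0.13 and 0.21 and rho was -0.45, -0.23 and -0.19.

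Genes whose signals most resembled those of the factors were sought among 6882 other genes detected in at least 4 cells, by r over the 14 cells. Nearest to Pou4f1 were the axonal adhesion molecule Nrcam (r = 0.92), the translation initiation factor subunit Eif3f (0.91) and the dynactin subunit Dctn3 (0.89), each detected in the same 13 cells. With the 2 cells of most extreme Pou4f1 signal removed, r was 0.79, 0.68 and 0.54. For the genes nearest to the other factors, r after the like removal was 0.89 or higher. These checks are not alike, because for Pou4f1 the removal took out cell 5, the only cell without its detection. The main probe sets of Isl1, Ebf1 and Ebf3 were detected in 10, 9 and 7 cells, so undetected cells remained after it. All the nearest genes were picked for high r in these same 14 cells. Nearest to Isl1 were Tln2, which links integrins to actin, the RNA-binding protein Ewsr1 and the chaperone of the endoplasmic reticulum Erp29, with r of 0.97 each. Tln2 and Ewsr1 were detected in the same 10 cells as 1422720_at of Isl1. For Ebf1 they were Zswim8, the G protein subunit Gnai1 and Klhl1, with r of 0.95, 0.94 and 0.93, and for Ebf3 the kinesin Kif3c, Ripor1 and the phosphatase regulator Ppp1r8, with 0.91, 0.91 and 0.89. The genes near Ebf3 had r of 0.82, 0.88 and 0.81 with the number of detected probe sets. The factors were not near to each other in this ranking: the closest was Ebf1, at place 327 for Isl1.

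Related genes and partners were then examined as lists. Of 8 other POU factors measured, Pou6f1 alone reached 7 cells, with detection in 8 at signals of 643 to 17244, Pou3f2 and Pou3f1 were in 2 cells and 1 cell, and 5 were in none. The LIM homeodomain relatives of Islet were mostly undetected: of 10, only Lhx9 was found, in cell 14 at 78.4, and it read up to 94.3 where not detected. Of all genes, 60.3% were found in 1 cell or more. The medians were 0 cells for both lists, against 2 over all genes and 7 for the Brn3, Islet and Ebf factors.

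Cofactors of LIM proteins were mixed. Of 10 genes, 4 reached 7 cells, against 26.8% of all genes, and these 4 had 2 to 5 probe sets each. A further 3 were found in up to 5 cells and 3 were undetected, with a median of 3 cells. Ssbp2 and Ssbp3, which bind Ldb proteins, were each in 13 cells, and the ubiquitin ligase Rlim, which acts on Ldb complexes, was in 11. Ldb2 was in 7 cells (620.8 to 10588 in the 6 cells detected by its main probe set), and Ldb1 in cell 4 alone at 427.3. Lmo4, a LIM-only protein, was in 5 cells, and Lmo1, Lmo2 and Lmo3 were in none. Ssbp4 was detected in cell 5 alone, at 101.0, and read up to 139.9 where not detected.

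Among the Ebf relative and the zinc finger proteins known to bind Ebf proteins, Zfp521 was detected in 11 cells, Zfp423 in 7 and Ebf4 in 2. Zfp521 had signals of 1066 to 25463 where its main probe set was detected and at most 54.3 elsewhere. Zfp423 was found in cells 1, 2, 3, 4, 6, 7 and 12, at 194.6 to 6022. Ebf4 was clear in cells 1 and 9, at 2284 and 2997, and at most 99.5 in the rest.

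Of 14 genes that act upstream of the factors or early in RGC development, 4 reached 7 cells, a share close to the 26.8% of all genes, 6 were found in fewer and 4 were undetected (median 1.5 cells). The neuronal factor Myt1l was in 14 cells, the eye field factor Pax6 in 13, Sox4 in 9 and Barhl2, a homeodomain factor of RGCs and amacrine cells, in 8. Pax6 was undetected in cell 5 alone. Atoh7 was detected in cell 10 only, at 468.0, and Onecut1, Dlx1, Dlx2 and Neurod2 in none.

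Genes that have been tied to Pou4f2 or Isl1 in the developing mouse retina had a median of 13 cells. Of 8 measured, 5 were in at least 13 cells, compared with 6.06% of all genes, namely Gap43, Nefl, Sncg, Ablim1 and Nrn1, which serve the axon or its growth or, for Sncg, mark RGCs. The secreted signal Shh was in 2 cells and the transcription factors Eomes and Gli1 in none. Cell 5, which had none of the factors, had 4 of the 8: Gap43, Nefl, Nrn1 and Sncg. The libraries had been chosen for Sncg by PCR, so its presence is not independent of that choice. Nefl and Sncg are also among the RGC markers given above. Whether Pou4f2, which had no single-gene probe set to analyse here, or Isl1 acted on any of these genes was not tested.

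**Figure D4:**
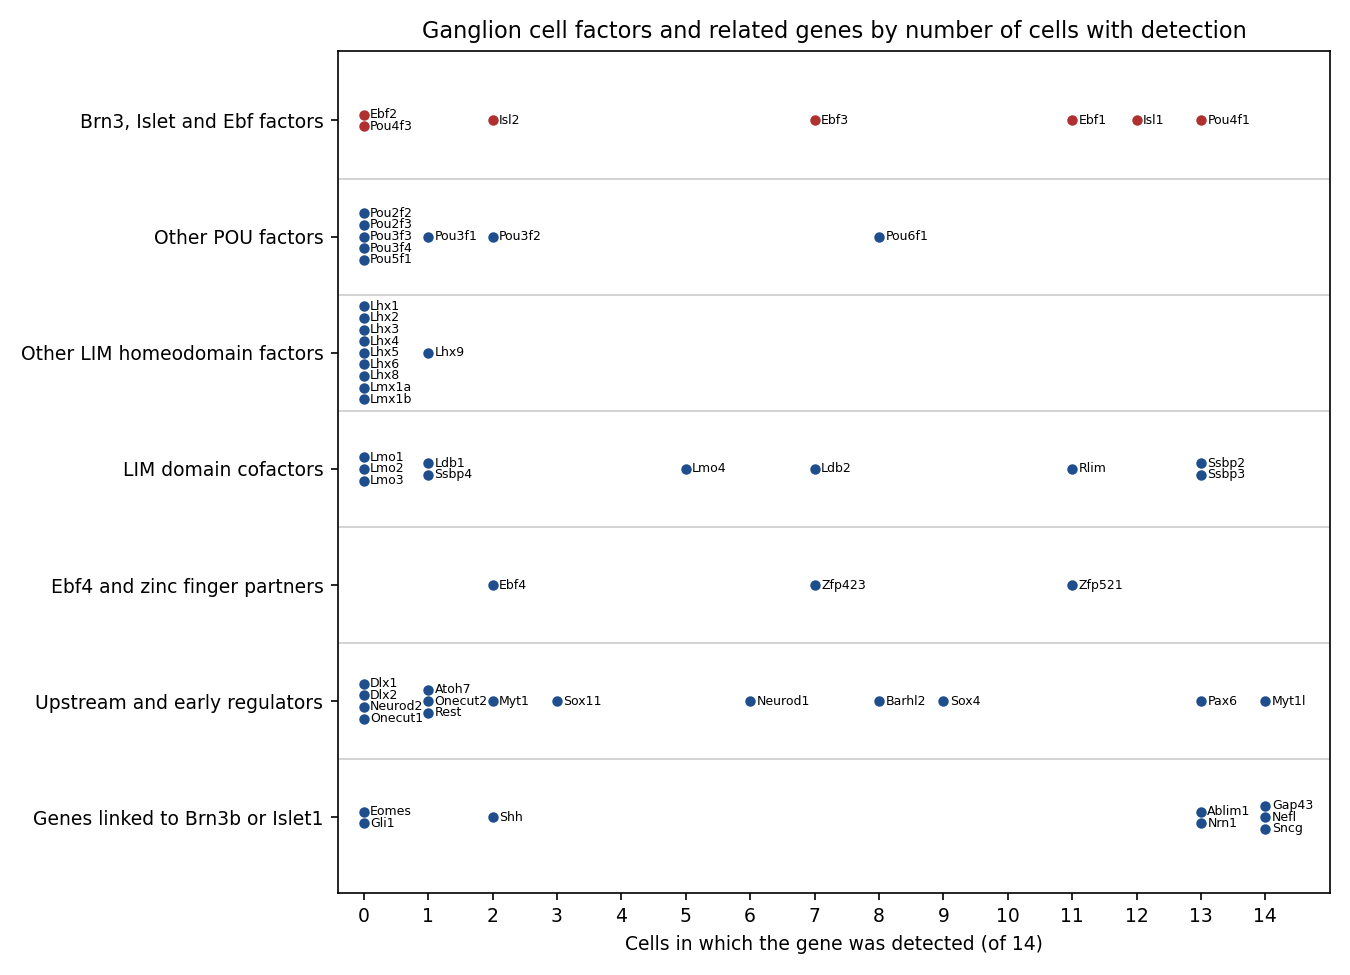
Number of cells (horizontal, of 14) in which each gene was detected by any probe set, for the Brn3, Islet and Ebf factors (red, top) and 6 lists of related genes (blue), 1 named point per gene. The factors spread from 0 cells for Pou4f3 and Ebf2 to 13 for Pou4f1, while 9 of 10 other LIM homeodomain genes lie at 0.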

How the data were processed

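Single-cell cDNA from 14 adult mouse RGCs was hybridised to Affymetrix whole-genome mouse arrays. The deposited values are MAS5 signal intensity per probe set on a linear scale, made by the authors with the MAS5 algorithm, and the 14 arrays had 2% trimmed means of 500.003 to 500.011. No source used stated the MAS5 version. No detection calls or scanner files were used. Of 45101 probe sets, 64 controls were left out. Names came from the array's annotation, updated through gene numbers with a mouse gene table (GRCm38.p6): 34945 probe sets had 1 gene, 932 several, which were given no name, and 9160 were unnamed here.

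Detection was a signal of at least 8 times the array median. None of 378 values of 27 control probe sets for transcripts foreign to the mouse passed. The main probe set of a gene was the one with the highest mean log2 signal. Correlations used log2(signal + 32), with no p-values. The named genes were the 8 factors, members of 6 lists and 7 marker sets (each given by counts with its most and least widely detected genes), and the 3 genes with the highest r to each factor detected in at least 4 cells. Pvalb was added because its gene drives Cre in these mice. Leaving out the 2 cells with the highest Gapdh ratio was added after seeing the data. The factors, lists and rules were chosen with earlier results of these data known. Alternatives changed the threshold, the pseudocount, the normalization, the choice of probe set and the cells. The number of arrays limits the precision. Scripts used Python 3.11.15 with numpy 2.4.6, pandas 2.3.3 and scipy 1.17.1, and were tested on simulated data.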

Additional observations from a re-analysis of the deposited data

How the results depend on the processing

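Pou4f1, Isl1, Ebf1 and Ebf3 were found in at least 7 cells or 50% of those kept under every alternative run, and Pou4f3 joined them under the threshold taken from the control probe sets. The low counts were those that moved. Isl2 was found in 5 cells at 4 times the array median, 6 with the control threshold and 1 at 16 times the median or a fixed signal of 1000, against 2. Pou4f3 was found in 5 cells at 4 times the median and 7 with the control threshold, against 0, and Ebf2 in 1 cell at 4 times the median, against 0. By the main probe set only, Isl1 was in 10 cells and Ebf1 in 9. With cells left out in which neither gene of a pair was detected, r for Isl1 and Ebf1 was -0.065 over 10 cells, against 0.66. The median r over the 6 pairs was then -0.19, against 0.36. Removing cells low for both genes tends to lower r by itself, so the change does not show whether the factors vary together. Leaving out cells 13 and 14, which had the highest Gapdh ratios, was chosen after seeing the data and gave 91.7% of cells for Pou4f1, 83.3% for Isl1, 91.7% for Ebf1 and 58.3% for Ebf3. No paired analysis was possible because all 14 cells form 1 group. Signals close to the threshold, as for Isl2 and Pou4f3, limit what these arrays can show.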
